A study of Mus musculus with 36 samples.

Results

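The ventral tegmental area (VTA) was compared with the prefrontal cortex (PFc) in knock-in (KI) mice. The altered gene, Maoa on chromosome X, encodes monoamine oxidase A, an enzyme that degrades dopamine, noradrenaline and serotonin. The comparison used 6 of the 36 RNA-seq libraries of the series, chosen by the genotype and region in their names: 3 KI VTA libraries and 3 KI PFc libraries. The series covers 6 brain regions in 2 genotypes, with 3 libraries each. Its title attributes lower Maoa transcription and translation to a synonymous base change, and the same region contrast in wild-type (WT) mice, 3 WT VTA against 3 WT PFc libraries, is given where it shows how the KI contrast differs. All mice were C57, aged 6 to 7 weeks, and a SMARTER mRNA-seq kit was used for every library. VTA and PFc are the labels' abbreviations, read here by their usual meaning. The labels do not say how the knock-in was made, how the regions were dissected, or whether the 3 libraries of a group came from separate animals, so each p-value measures the spread between libraries, which may be technical.

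The VTA is a midbrain nucleus whose dopamine neurons project to the nucleus accumbens and the prefrontal cortex. These neurons make dopamine from tyrosine with tyrosine hydroxylase (Th) and aromatic amino acid decarboxylase (Ddc), load it into vesicles with the vesicular monoamine transporter (Slc18a2) and take it back from the synapse with the dopamine transporter (Slc6a3). The prefrontal cortex holds layered glutamate neurons and several classes of GABA interneuron, and receives dopamine axons without having dopamine cell bodies of its own.

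The 6 KI libraries held 15440141 to 17097808 estimated counts each, and the 6 WT libraries 17275268 to 18579468. Levels are given as CPM, the counts scaled to a common library size by trimmed means, and different genes are set side by side only in the authors' deposited TPM, which allow for gene length. Both labels matched their defining genes, with exceptions in 2 genes. Cux2, a factor of upper-layer cortical neurons, had 30.8, 31.4 and 31.7 CPM in KI VTA libraries 1 to 3, against 25.1, 125 and 160 CPM in KI PFc libraries 1 to 3, so that KI PFc 1 was below the VTA. Nr4a2, a transcription factor of dopamine neurons, had 21.2, 27.8 and 21.8 CPM in KI VTA libraries 1 to 3, against 47.9, 15.1 and 25.1 CPM in KI PFc libraries 1 to 3.

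**Figure D1:**
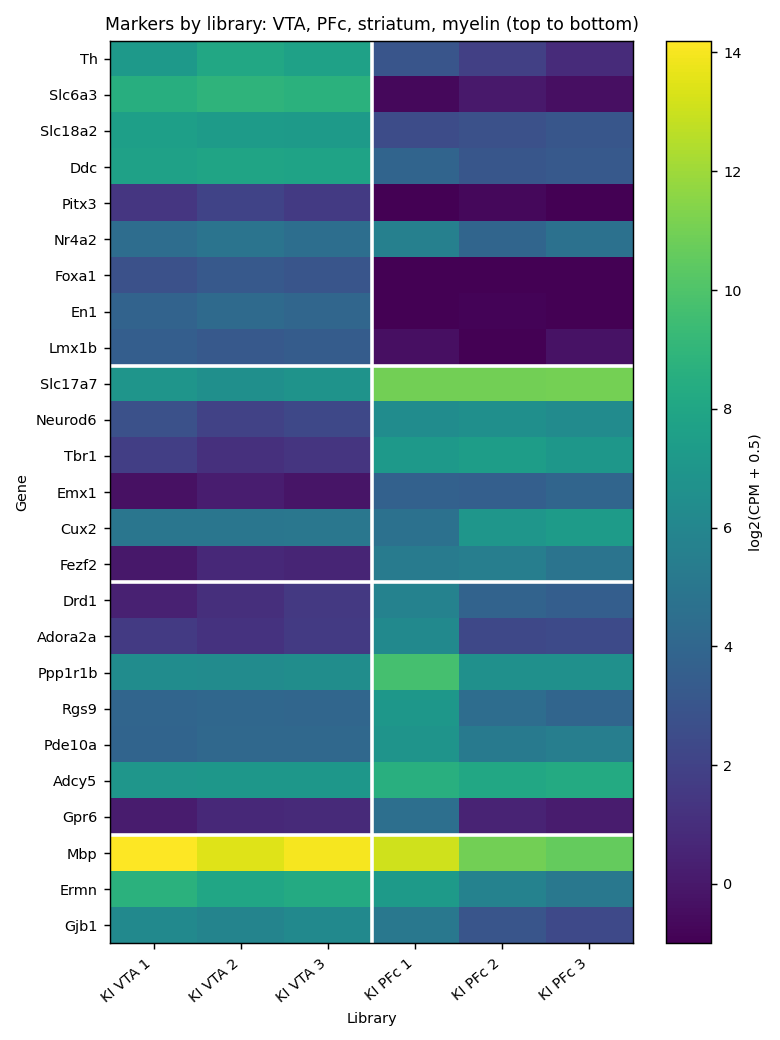
Level of marker genes in each KI library, as log2(CPM + 0.5) on the colour scale, with KI VTA libraries left of KI PFc libraries and genes grouped from top to bottom as VTA, PFc, striatal and myelin markers. Of the 3 KI PFc libraries, KI PFc 1 has the highest level of the striatal and myelin genes, such as Ppp1r1b at 841 CPM against 97.1 and 98.6 CPM in KI PFc 2 and 3.

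KI PFc 1 stood apart from the other KI PFc libraries in striatal and myelin genes. Adora2a, an adenosine receptor of striatal projection neurons, had 75.2 CPM in KI PFc 1 and 4.39 and 4.91 CPM in KI PFc 2 and 3. The summed level of the 20 striatal genes listed was 668 to 695 CPM in KI VTA libraries, against 3145 CPM in KI PFc 1 and 870 and 988 CPM in KI PFc 2 and 3. The 19 myelin and oligodendrocyte genes summed to 28712 to 41156 CPM in KI VTA libraries, against 20433 CPM in KI PFc 1 and 5539 and 4046 CPM in KI PFc 2 and 3. The 25 genes of cortical excitatory neurons summed to 1113 to 1217 CPM in KI VTA libraries, against 7423 CPM in KI PFc 1 and 12826 and 14247 CPM in KI PFc 2 and 3. Counts of called list members were repeated without KI PFc 1, and are given again where they moved by over 1.5 times.

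KI VTA 3 lay between KI VTA 1 and KI VTA 2. Among genes with a mean of at least 10 CPM, 61 differed at least 2-fold between KI VTA 1 and 2, and KI VTA 3 had an intermediate level in 61 of these 61. Pmch, the hypothalamic peptide melanin-concentrating hormone, had 93.9, 6.95 and 47.4 CPM in KI VTA libraries 1, 2 and 3. Cartpt, the peptide CART of the Edinger-Westphal nucleus and other sites, had 5.31, 297 and 144 CPM in the same order. The weighted sum of the other two that came closest to KI VTA 3 was 47.1% of KI VTA 1 and 52.9% of KI VTA 2, and its squared residual was 2.95 times the counting variance. This was the lowest of the 36 libraries when each was set against the other two of its group, and the next lowest was 5.76. If KI VTA 3 shares material with the other two, the p-values are too small; its origin was not tested. List counts without KI VTA 3 are given by the same rule. Without it, 8.47% of all genes were called higher and 12.9% lower, against 16.4% and 20.4% with all libraries.

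**Figure D2:**
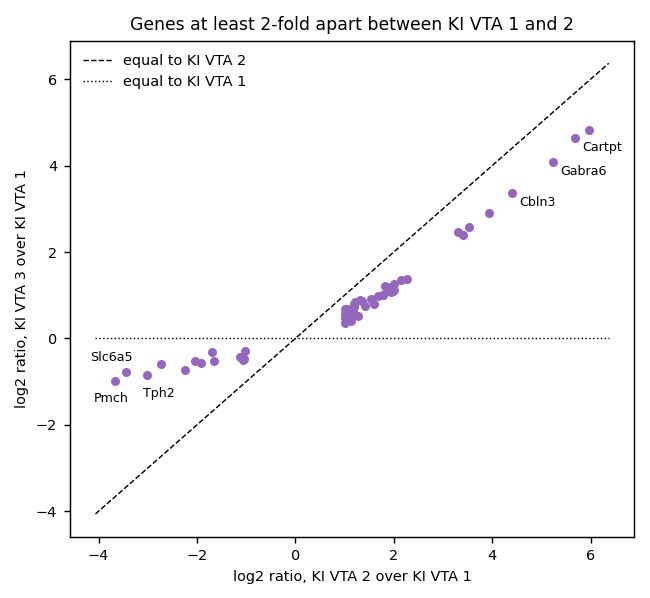
Each point is 1 of the 61 genes at least 2-fold apart between KI VTA 1 and KI VTA 2 (mean of at least 10 CPM), with the log2 ratio of KI VTA 2 over KI VTA 1 on the x axis and of KI VTA 3 over KI VTA 1 on the y axis. All 61 points lie between the dashed line, where KI VTA 3 would equal KI VTA 2, and the dotted line, where it would equal KI VTA 1.

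Of 14450 genes tested, 2366 (16.4%) were higher and 2942 (20.4%) lower in KI VTA than in KI PFc at an adjusted p under 0.05 in edgeR's quasi-likelihood test, 5308 (36.7%) in all. At least 2-fold changes were called in 961 genes that were higher and 1458 that were lower, and the median log2 fold change over all tested genes was 0.0029. The libraries of the 2 regions did not overlap in 7623 genes (52.8%), 3773 higher (26.1%) and 3850 lower (26.6%). Without KI PFc 1 the test called 8835 of 14672 genes (60.2%), 4332 higher (29.5%) and 4503 lower (30.7%), including 5285 of the 5308 in the same direction and 0 in the opposite one. Without KI VTA 3 it called 3115 of 14573 genes (21.4%), 1235 higher (8.47%) and 1880 lower (12.9%). With both left out it called 7356 of 14479 (50.8%), 3528 higher (24.4%) and 3828 lower (26.4%). In bulk tissue, fewer cells of a type and less RNA per cell cannot be told apart, here or in any result that follows.

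Maoa, which the annotation (GRCm38.p6, gene 17161) places at 16619698 to 16687812 on chromosome X, had 95.9, 79.2 and 86.7 CPM in KI VTA libraries 1 to 3, against 44.3, 50.1 and 51.7 CPM in KI PFc libraries 1 to 3. Every VTA library was above every PFc library. The means were 87.3 ± 8.35 CPM in KI VTA and 48.7 ± 3.91 CPM in KI PFc (SD, n = 3 each), a log2 fold change of 0.84 (SE 0.121, edgeR adjusted p = 0.00188). A count per gene does not show a synonymous base change, so these values do not check the genotype. The same contrast in WT libraries gave 72.4, 77.6 and 53.1 CPM in WT VTA and 48.4, 46.1 and 47.1 CPM in WT PFc, again without overlap. Every KI VTA library was above every WT VTA library, and the KI PFc libraries lay on both sides of the WT PFc ones. Lower Maoa in KI was thus not seen in these levels, and the genotypes were not tested against each other within a region. The KI and WT region differences in Maoa were 0.35 apart on the log2 scale (SE 0.198, edgeR adjusted p = 0.695 for genotype by region). The library labelled WT VTA 3, the lowest of the WT VTA libraries here, lacked VTA markers, as described further on. Without it the WT region difference in Maoa was 0.66 (edgeR adjusted p = 0.000745), and without it and KI PFc 1 the KI and WT differences were 0.15 apart (SE 0.135, edgeR adjusted p = 0.634).

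Maoa was 1 of 6 genes listed for monoamine breakdown and the only one of them called with all libraries, with a list median of 0.17 against 0.0029 over all genes. Without KI PFc 1, 3 of the 6 were higher, Maoa among them, and 1 was lower, beside 29.5% and 30.7% of all genes. Maob, the other monoamine oxidase, had a log2 fold change of -0.01 (SE 0.141, edgeR adjusted p = 0.979), with 50.8, 38.4 and 45.2 CPM in KI VTA against 39.9, 46.4 and 48.5 CPM in KI PFc. In TPM, Maoa and Maob had 39.9 ± 3.32 and 37.1 ± 4.62 in KI VTA, and 23.0 ± 3.41 and 38.5 ± 6.43 in KI PFc (SD, n = 3 each).

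Genes of dopamine synthesis, storage, transport and signalling were higher in the VTA. Of 12 such genes, 11 were higher in KI VTA and 0 lower, with a median log2 fold change of 5.04. The promoters of 3 of them are shown, with that of an activity-induced gene described further on, because the cyclic AMP response element is a known regulatory site at Th. Each window runs from 250 bases before to 50 bases after the RefSeq start (GRCm38.p6), 5′ to 3′ on the gene's strand. Capitals mark the cyclic AMP response element TGACGTCA, which reads the same on both strands, or in Egr2 a CArG box, the site of serum response factor.
Th, chr7:142899946-142900245, minus strand: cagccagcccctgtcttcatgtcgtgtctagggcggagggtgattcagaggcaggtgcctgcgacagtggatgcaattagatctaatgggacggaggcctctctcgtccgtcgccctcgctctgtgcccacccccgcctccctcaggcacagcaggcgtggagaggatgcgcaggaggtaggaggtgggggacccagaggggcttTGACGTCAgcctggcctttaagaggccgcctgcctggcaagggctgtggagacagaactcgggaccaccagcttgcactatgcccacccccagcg
Slc18a2, chr19:59260628-59260927, plus strand: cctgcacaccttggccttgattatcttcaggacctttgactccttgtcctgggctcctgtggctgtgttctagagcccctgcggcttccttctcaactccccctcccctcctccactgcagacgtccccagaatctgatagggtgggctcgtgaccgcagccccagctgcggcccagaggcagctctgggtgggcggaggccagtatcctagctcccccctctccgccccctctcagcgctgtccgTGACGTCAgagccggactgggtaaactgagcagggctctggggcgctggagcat
Slc6a3, chr13:73536497-73536796, plus strand: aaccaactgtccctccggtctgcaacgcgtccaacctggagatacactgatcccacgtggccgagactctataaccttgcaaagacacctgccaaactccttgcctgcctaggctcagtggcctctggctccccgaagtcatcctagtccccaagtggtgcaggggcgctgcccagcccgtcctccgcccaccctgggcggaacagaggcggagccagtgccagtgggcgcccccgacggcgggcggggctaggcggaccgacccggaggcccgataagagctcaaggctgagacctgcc
Egr2, chr10:67537619-67537918, plus strand: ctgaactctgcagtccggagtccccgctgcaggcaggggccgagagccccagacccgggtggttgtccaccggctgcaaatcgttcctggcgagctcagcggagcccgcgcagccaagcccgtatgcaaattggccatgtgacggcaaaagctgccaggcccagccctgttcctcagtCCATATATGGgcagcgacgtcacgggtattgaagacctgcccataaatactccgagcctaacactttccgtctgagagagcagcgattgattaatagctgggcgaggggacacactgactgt
The element began 45 bases before the start of Th and 4 bases before that of Slc18a2, and had no match in the Slc6a3 window. It was present in 1.79% of all 32851 promoter windows, in 2.32% of windows of genes called higher in KI VTA, 2.62% of those called lower and 3.03% of those not called. RefSeq gave 5 windows for Egr2, of which 4 held a CArG box and the 1 farthest upstream none. Some of these 4 overlap and hold the same box. The window shown was picked for its match. In it the box began 72 bases before the start. A CArG box was present in 1.63% of all windows, in 1.26% of those of genes called higher in KI VTA, 1.41% of those called lower and 1.35% of those not called.

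Slc6a3 had 363, 475 and 410 CPM in KI VTA libraries 1 to 3, against 0.128, 0.509 and 0.273 CPM in KI PFc libraries 1 to 3, a log2 fold change of 10.38 (SE 0.317, edgeR adjusted p = 1.24e-05; 10.97 without KI PFc 2). Th had 146, 277 and 207 CPM in KI VTA, against 7.45, 3.25 and 1.30 CPM in KI PFc. Its log2 fold change was 5.70 (SE 0.58, adjusted p = 0.000403), and 6.51 without KI PFc 1, the cortical library with the most Th. Slc18a2 had 188, 159 and 157 CPM in KI VTA, against 5.33, 6.43 and 7.84 CPM in KI PFc (log2 fold change 4.68, SE 0.18). No VTA library overlapped a PFc library in these 3 genes. In TPM, Th, Ddc and Slc6a3 lay within their spread of one another in KI VTA, at 246 ± 81.7, 233 ± 21.1 and 232 ± 35.7, and 4.65 ± 3.32, 11 ± 2.85 and 0.180 ± 0.121 in KI PFc (SD, n = 3 each). Slc18a2 had 84.6 ± 8.48 TPM in KI VTA and 3.41 ± 0.823 TPM in KI PFc.

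The other genes of the list described different steps of dopamine neuron function. Gch1, which makes the cofactor of tyrosine hydroxylase, had 23.5, 23.4 and 21.5 CPM in KI VTA against 0.964, 1.34 and 1.98 CPM in KI PFc, a log2 fold change of 4.0 (SE 0.235, edgeR adjusted p = 4.99e-05). Ret, the signalling receptor for glial cell line-derived neurotrophic factor, had 130, 200 and 158 CPM in KI VTA against 3.60, 3.88 and 4.09 CPM in KI PFc (5.40, adjusted p = 1.47e-05). Aldh1a1, an aldehyde dehydrogenase of ventral midbrain dopamine neurons, had 805, 633 and 731 CPM in KI VTA against 45.1, 34.9 and 37.0 CPM in KI PFc (4.21, adjusted p = 1.6e-05). The nicotinic receptor subunit Chrna6 had 45.1, 67.9 and 56.1 CPM in KI VTA, and 2 counts in all in KI PFc, a ratio of 1304 with a 95% counting interval of 361 to 10772. Slc10a4, a vesicular protein of monoamine neurons, had 52.7, 72.1 and 57.6 CPM in KI VTA against 3.15, 0.255 and 0.545 CPM in KI PFc. Its log2 fold change was 5.51 (adjusted p = 0.000736), and 7.24 without KI PFc 1.

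Drd2 was the gene of this list that was not called. It encodes the D2 receptor, an autoreceptor of dopamine neurons that is also abundant in striatal projection neurons. It had 27.4, 45.4 and 33.0 CPM in KI VTA libraries 1 to 3, against 71.8, 2.42 and 2.93 CPM in KI PFc libraries 1 to 3. KI PFc 1 was above every VTA library, and KI PFc 2 and 3 were below every one. The log2 fold change was 0.44 (SE 1.11, edgeR adjusted p = 0.777) with all libraries and 3.72 (SE 0.265, adjusted p = 7.61e-06) without KI PFc 1. It was -0.10 without KI PFc 2 and -0.09 without KI PFc 3, neither of them called.

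Of 10 transcription factors of dopamine neuron identity, 8 were higher in KI VTA and 0 lower, with a median of 5.70. Foxa1 and Foxa2, forkhead factors of the ventral midbrain, had 0 counts in KI PFc and were at least 117-fold and at least 64.7-fold higher in KI VTA, against 3 counts over the group. En1, which patterns the midbrain and hindbrain and maintains dopamine neurons, had 809 counts in KI VTA and 1 in KI PFc, a ratio of 737 (95% counting interval 132 to 29141). Lmx1b, a LIM factor of dopamine and serotonin neurons, had 11.4, 8.87 and 10.2 CPM in KI VTA against 0.257, 0 and 0.341 CPM in KI PFc (log2 fold change 5.63, SE 0.492, edgeR adjusted p = 0.000206; 5.05 without KI PFc 2). Pitx3, a homeodomain factor of midbrain dopamine neurons, had 142 counts in KI VTA and 2 in KI PFc, a ratio of 64.7 (17.6 to 539). The 2 not called were Nr4a2, at -0.32 (SE 0.381, adjusted p = 0.537), and Sox6, at -0.51 (adjusted p = 0.234). Sox6, a factor of ventral tier dopamine neurons and of cortical interneurons, was lower without KI PFc 1 (-0.82, adjusted p = 0.000829).

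Genes of other monoamine neurons were also higher in the VTA libraries. Of 9 genes of serotonin neurons, 6 were higher and 0 lower, with a median of 5.13. Among the 6, however, Gch1 and Lmx1b are shared with dopamine neurons, and Gata3 with midbrain GABA neurons. Tph2, the serotonin-synthesising hydroxylase of the brain, had 124, 14.8 and 68.4 CPM in KI VTA against 0.964, 0.700 and 2.32 CPM in KI PFc (log2 fold change 5.71, SE 0.874, edgeR adjusted p = 0.00248). Slc6a4, the serotonin transporter, had 48.8, 6.89 and 32.2 CPM in KI VTA against 0.0642, 0.0636 and 1.09 CPM in KI PFc (6.19, SE 1.02, adjusted p = 0.0034). Both genes were several times higher in KI VTA 1 than in KI VTA 2, and neither overlapped with the cortex. Without KI VTA 1 the log2 fold changes were 4.98 for Tph2 and 5.60 for Slc6a4, and without KI PFc 3 they were 6.35 and 8.67. Of 6 genes listed for noradrenaline and adrenaline neurons, 3 were tested and 3 higher, at low levels. Among these 3, the peptide galanin (Gal) is also in the neuropeptide list. Slc6a2, the noradrenaline transporter, had 55 counts in KI VTA and 1 in KI PFc, a ratio of 50.1 (95% counting interval 8.62 to 2014). The whole noradrenaline list summed to 3.45 to 5.50 CPM in KI VTA and 0.191 to 1.28 CPM in KI PFc.

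Genes of midbrain GABA neurons were mostly higher in the VTA. Of 12 listed genes, 8 were higher and 1 lower in KI VTA, with a median of 1.34. Gata3, a zinc finger factor of midbrain GABA and serotonin neurons, had 517 counts in KI VTA and 2 in KI PFc, a ratio of 235 (95% counting interval 64.9 to 1949). Sox14, of midbrain and thalamic GABA neurons, had 0 counts in KI PFc and was at least 36.7-fold higher in KI VTA, against 3 counts over the group. Tal1, which selects the GABA fate in the midbrain, had a log2 fold change of 2.16 (SE 0.343, edgeR adjusted p = 0.00288). Gad1, the GABA-synthesising enzyme of all GABA neurons, was at 0.36 (SE 0.119, adjusted p = 0.0512) with 208 ± 20.3 TPM in KI VTA and 166 ± 14.8 TPM in KI PFc (SD, n = 3 each). It passed at 0.40 without KI PFc 1 (adjusted p = 0.007). The 1 gene that fell was Zfpm1, a cofactor of GATA factors, at -1.57 (adjusted p = 0.00288).

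The glutamate transporters changed in opposite directions. Slc17a6, the vesicular glutamate transporter of subcortical neurons, had 115, 201 and 150 CPM in KI VTA against 8.54, 12.4 and 9.95 CPM in KI PFc, a log2 fold change of 3.91 (SE 0.251, edgeR adjusted p = 6.45e-05). Slc17a7, the transporter of cortical glutamate neurons, had 120, 92.7 and 110 CPM in KI VTA against 1968, 2029 and 2053 CPM in KI PFc, at -4.23 (SE 0.147, adjusted p = 1.47e-05). In TPM the KI VTA libraries held 83.4 ± 24.7 of Slc17a6 and 71.4 ± 8.04 of Slc17a7, and the KI PFc libraries 5.54 ± 1.26 and 1382 ± 131 (SD, n = 3 each).

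Of 13 genes listed for subcortical glutamate and red nucleus neurons, 12 were tested, 11 were higher and 1, the cortical factor Tbr1, was lower. The median was 4.85, and 4.25 with the 2 genes at 0 in KI PFc set to their bounds. The Iroquois factor Irx2 had 37.5, 19.2 and 27.3 CPM in KI VTA and 2 counts in all in KI PFc, a ratio of 636 (95% counting interval 176 to 5259). Barhl1, a homeodomain factor of the subthalamic and mammillary regions and of the cerebellum, had 0 counts in KI PFc and was at least 81.7-fold higher in KI VTA, against 3 counts over the group. Other factors outside that list were among the largest rises. The homeodomain factor Uncx had 0 counts in KI PFc and was at least 73.2-fold higher. Pax7, a paired factor of the dorsal midbrain, had 1 count in all in KI PFc and a ratio of 267 (47.5 to 10577). Rln3, the relaxin peptide of the nucleus incertus and nearby brainstem, had 0 counts in KI PFc and was at least 58.3-fold higher.

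Of 7 genes of glycine signalling, 4 were higher and 0 lower. Slc6a5, the glycine transporter of glycine neurons, had 77.5, 6.72 and 45.3 CPM in KI VTA against 0.193, 0.0636 and 0.682 CPM in KI PFc (log2 fold change 7.10, SE 1.13, edgeR adjusted p = 0.00291). It was 6.37 without KI VTA 1 and 8.31 without KI PFc 3. Slc6a9, the glial glycine transporter, had 216, 192 and 217 CPM in KI VTA against 76.1, 37.9 and 28.8 CPM in KI PFc (2.13, SE 0.343, adjusted p = 0.0031).

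Most listed genes of cortical projection neurons were lower in the VTA. Of 25 listed genes of cortical excitatory neurons, 19 were lower in KI VTA and 0 higher, with a median of -3.02. Without KI PFc 1, 22 were lower and 1, the forkhead factor Foxp2, was higher (1.29, edgeR adjusted p = 0.0045). Tbr1, the T-box factor of deep-layer neurons, had 3.06, 1.69 and 2.09 CPM in KI VTA against 147, 179 and 133 CPM in KI PFc (-6.07, SE 0.25). Fezf2, which specifies subcerebral projection neurons, had 0.50, 1.19 and 1.02 CPM in KI VTA against 40.1, 45.5 and 27.8 CPM in KI PFc (-5.37, SE 0.321). The VTA and PFc libraries did not overlap in either gene, and KI PFc 1 lay between the other two cortical libraries in both.

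Other genes among the named falls belonged to different families. Kcnh3, a voltage-gated potassium channel of the forebrain, had 4.18, 7.00 and 5.50 CPM in KI VTA against 162, 271 and 305 CPM in KI PFc (log2 fold change -5.46, SE 0.316, edgeR adjusted p = 4.81e-05). Kcnj4, an inward rectifier potassium channel, had 5.43, 6.44 and 6.16 CPM in KI VTA against 192, 171 and 188 CPM in KI PFc (-4.93, SE 0.134, adjusted p = 1.24e-05). Rtn4rl2, a relative of the Nogo receptor, had 1.31, 2.09 and 1.97 CPM in KI VTA against 62.3, 55.3 and 57.8 CPM in KI PFc (-5.02, SE 0.187). The replicates of each region lay close together in the last 2 genes. Ovol2, a zinc finger factor, was at -6.34 (adjusted p = 0.000127; -7.80 without KI VTA 2), the hexokinase relative Hkdc1 at -5.15 (adjusted p = 0.00142) and the meiosis gene Mei1 at -4.99 (adjusted p = 0.000197).

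Markers of cortical interneurons moved in both directions. Of 20 listed genes, 13 were lower and 5 higher in KI VTA, with a median of -2.08, beside 20.4% and 16.4% of all genes. Without KI VTA 3 the counts were 12 lower and 3 higher, beside 12.9% and 8.47%. Lhx6, a factor of interneuron development, was at -3.14 (SE 0.303). Npy, neuropeptide Y, had 2.25, 7.57 and 6.52 CPM in KI VTA against 148, 82.4 and 79.4 CPM in KI PFc (-4.24, SE 0.462, adjusted p = 0.000544). Vip, vasoactive intestinal peptide, had 7.06, 5.42 and 4.72 CPM in KI VTA against 34.8, 49.3 and 64.5 CPM in KI PFc (-3.11, SE 0.265). Cort, cortistatin, was at -5.68 (SE 0.513, adjusted p = 0.000234).

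Calb2 and Pvalb, which encode calcium-binding proteins, were 2 of the 5 interneuron genes that were higher. Calb2, calretinin, had 225, 350 and 287 CPM in KI VTA against 16.0, 17.6 and 21.2 CPM in KI PFc (log2 fold change 3.98, SE 0.207, edgeR adjusted p = 3.88e-05). Pvalb, parvalbumin, had 225, 254 and 244 CPM in KI VTA against 77.7, 47.0 and 40.2 CPM in KI PFc (2.13, SE 0.25, adjusted p = 0.000759). Both genes are used by midbrain neurons as well as by cortical interneurons.

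Immediate early genes, which neurons transcribe within minutes of activity, were lower in KI VTA. Of 17 listed genes, 15 were lower and 0 higher, with a median of -2.33. Egr2, a zinc finger factor whose promoter is shown above, had 0.437, 0.226 and 0.299 CPM in KI VTA against 12.5, 11.8 and 18.5 CPM in KI PFc (log2 fold change -5.45, edgeR adjusted p = 4.86e-05). Egr3 had 4.0, 4.35 and 4.06 CPM in KI VTA against 117, 171 and 188 CPM in KI PFc (-5.26, SE 0.218, adjusted p = 1.6e-05). Arc, the synaptic protein of activated excitatory neurons, had 30.4, 27.2 and 29.7 CPM in KI VTA against 356, 325 and 553 CPM in KI PFc (-3.82, SE 0.227). Nr4a1, a nuclear receptor, was at -3.34 and Egr4 at -4.34. Fos, a component of the transcription factor AP-1, was not called, with 21.4, 15.6 and 19.3 CPM in KI VTA against 20.5, 27.0 and 33.4 CPM in KI PFc (-0.53, SE 0.203, adjusted p = 0.0791). Fos was lower without KI PFc 1 (-0.69, adjusted p = 0.00401). Genes of cortical excitatory neurons fell in the same libraries, and their part in the lower immediate early genes was not tested.

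Subunits of the GABA-A receptor changed in both directions. Of 16 listed subunits 15 were tested, 7 were lower and 3 higher in KI VTA, with a median of -0.65. Over all genes, 20.4% were lower and 16.4% higher. Gabrq, the theta subunit of monoamine and hypothalamic neurons, had 17.4, 19.9 and 16.4 CPM in KI VTA against 1.28, 0.764 and 1.02 CPM in KI PFc (log2 fold change 4.12, SE 0.217, edgeR adjusted p = 4e-05). Gabre, the epsilon subunit, was at 3.79 (SE 0.385). Gabrd, the delta subunit of extrasynaptic receptors, had 5.37, 20.8 and 12.9 CPM in KI VTA against 93.8, 65.0 and 73.8 CPM in KI PFc (-2.57, SE 0.431, adjusted p = 0.00357). Gabra4 was at -1.61. Gabra6, the alpha 6 subunit of cerebellar granule cells, was at 5.63 (SE 1.56, adjusted p = 0.0266) with 0.312, 30.0 and 13.2 CPM in KI VTA. It came almost wholly from KI VTA 2 and 3, and did not pass without KI VTA 2, KI VTA 3 or KI PFc 2 (adjusted p of 0.079, 0.0622 and 0.0848).

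**Figure D3:**
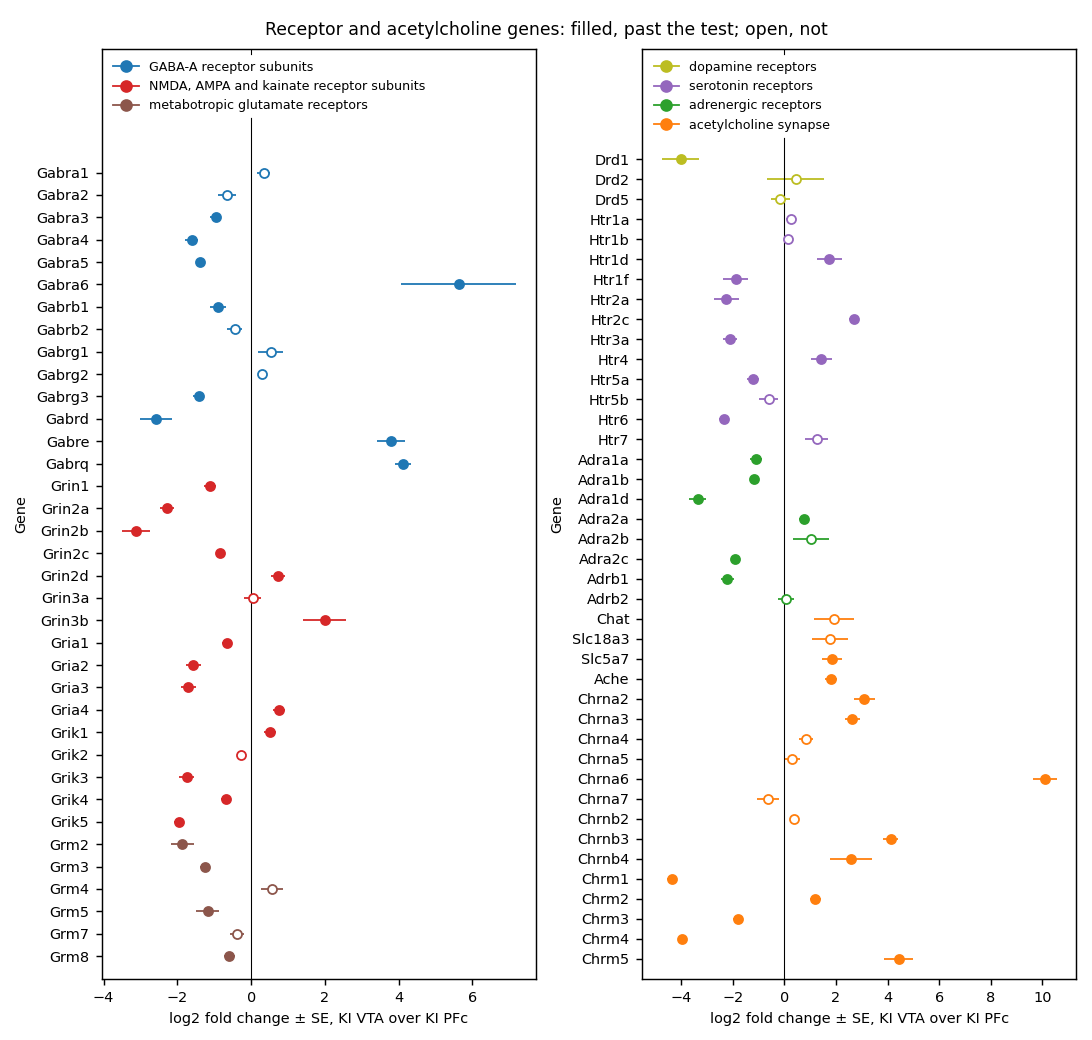
Log2 fold change of KI VTA over KI PFc for tested receptor and acetylcholine genes, with bars for ± SE of the edgeR fit. Filled points passed at an adjusted p under 0.05 and open points did not. The NMDA subunits Grin2b and Grin2a and the muscarinic receptors Chrm1 and Chrm4 lie far to the left, at -3.13, -2.28, -4.37 and -3.96.

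Ionotropic glutamate receptors were mostly lower in the VTA. Of 16 subunits, 10 were lower and 4 higher, beside 20.4% and 16.4% of all genes, with a median of -0.76. Without KI VTA 3, 10 were lower and 1 higher, beside 12.9% and 8.47% of all genes. Grin2b, an NMDA receptor subunit abundant in the forebrain, had 23.7, 38.9 and 30.1 CPM in KI VTA against 134, 324 and 354 CPM in KI PFc (log2 fold change -3.13, SE 0.383, edgeR adjusted p = 0.00091). Grin2a had 29.4, 35.0 and 31.9 CPM in KI VTA against 113, 174 and 180 CPM in KI PFc (-2.28, SE 0.195, adjusted p = 0.000191). KI PFc 1 was the lowest cortical library for both. In TPM, Grin2b and Grin2a had 2.33 ± 0.627 and 3.76 ± 0.396 in KI VTA, and 21.4 ± 10.3 and 18.9 ± 5.66 in KI PFc (SD, n = 3 each). The kainate receptor subunit Grik5 was at -1.96 and the AMPA receptor subunit Gria3 at -1.71. Of 7 metabotropic glutamate receptors, 4 were lower and 1 higher, beside 20.4% and 16.4% of all genes. Without KI VTA 3 only 2 were lower, beside 12.9%. Grm2, a presynaptic receptor, was at -1.86 (SE 0.303, adjusted p = 0.00318). With KI PFc 1 left out, 2 metabotropic receptors were higher and 5 lower, beside 29.5% and 30.7% of all genes.

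Serotonin receptors moved in both directions. Of 13 listed, 12 were tested, 5 were lower and 3 higher in KI VTA, beside 20.4% and 16.4% of all genes. Without KI VTA 3, 4 were lower and 1 higher, beside 12.9% and 8.47%. Htr2c, which is abundant in the midbrain and choroid plexus, had 125, 117 and 116 CPM in KI VTA against 15.4, 15.5 and 24.3 CPM in KI PFc (log2 fold change 2.70, SE 0.194, edgeR adjusted p = 0.000104). Htr2a, the excitatory receptor of cortical pyramidal neurons, had 1.31, 1.24 and 1.43 CPM in KI VTA against 2.44, 7.19 and 9.54 CPM in KI PFc (-2.26, SE 0.478, adjusted p = 0.00934). Htr6 was at -2.36 (SE 0.175) and Htr3a, the serotonin-gated channel of interneurons, at -2.11 (SE 0.281).

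Of 8 adrenergic receptors, 5 were lower and 1 higher, beside 20.4% and 16.4% of all genes, with a median of -1.14. Adra1d, an alpha 1 receptor, had 2.56, 2.65 and 2.93 CPM in KI VTA against 15.6, 35.0 and 33.2 CPM in KI PFc (log2 fold change -3.36, SE 0.325, edgeR adjusted p = 0.000322). The beta 1 receptor Adrb1 was at -2.21 and the alpha 2C receptor Adra2c at -1.92, while the alpha 2A autoreceptor Adra2a was higher at 0.76 (SE 0.196, adjusted p = 0.0202). Adra2a did not pass without KI VTA 1, KI VTA 3 or KI PFc 2 (adjusted p of 0.0755, 0.0594 and 0.0629). Of 4 opioid receptors, 3 were tested. The delta receptor Oprd1 had 2.37, 1.75 and 2.27 CPM in KI VTA against 5.33, 21.5 and 17.4 CPM in KI PFc (-2.79, SE 0.497, adjusted p = 0.00462). The nociceptin receptor Oprl1 was higher at 0.84 (SE 0.127), and the kappa receptor Oprk1 was not called at 0.70 (adjusted p = 0.233) but passed at 1.39 without KI PFc 1 (adjusted p = 0.000593). Of 5 dopamine receptors 3 were tested, and Drd1, the D1 receptor, was lower with 0.812, 1.58 and 2.39 CPM in KI VTA against 52.8, 14.0 and 11.3 CPM in KI PFc. Its log2 fold change was -4.03 (adjusted p = 0.00461), and -2.98 without KI PFc 1, the library with the striatal markers.

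More acetylcholine genes were higher than lower in the VTA, while muscarinic receptors went both ways. The list summed to 435 to 534 CPM in KI VTA libraries and 451 to 508 CPM in KI PFc libraries, which overlap. Of 18 listed genes, 9 were higher and 3 lower in KI VTA, beside 16.4% and 20.4% of all genes, with a median of 1.78. Without KI PFc 1 there were 13 higher and 4 lower, beside 29.5% and 30.7%. The 3 that fell were the muscarinic receptors Chrm1, Chrm3 and Chrm4, while Chrm2 was higher at 1.20 (SE 0.203, edgeR adjusted p = 0.00376), as was Chrm5. Chrm1 had 7.37, 12.2 and 9.50 CPM in KI VTA against 203, 189 and 210 CPM in KI PFc (log2 fold change -4.37, SE 0.2, edgeR adjusted p = 2.41e-05). The muscarinic receptor of dopamine neurons, Chrm5, had 79 counts in KI VTA and 3 in KI PFc, a ratio of 24.0 (95% counting interval 7.91 to 119). The nicotinic subunit Chrnb3, a partner of Chrna6, had 15.8, 26.6 and 21.4 CPM in KI VTA against 0.835, 1.46 and 1.36 CPM in KI PFc (4.11, SE 0.285, adjusted p = 9.23e-05). Chat, the acetylcholine-synthesising enzyme, was not called at 1.92 (SE 0.764, adjusted p = 0.0862), and passed at 3.95 without KI PFc 1 (adjusted p = 0.000201).

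Genes of fast-spiking neurons and large axons were higher in KI VTA, 12 of 16 against 0 lower, with a median of 1.20. With KI PFc 1 left out, 14 were higher and the potassium channel Kcnc2 was lower (-0.55, edgeR adjusted p = 0.0246). Vamp1, the vesicle protein of fast synapses, had 588, 473 and 560 CPM in KI VTA against 98.6, 87.7 and 67.1 CPM in KI PFc (log2 fold change 2.67, SE 0.182, edgeR adjusted p = 8.42e-05). Nefh, the heavy neurofilament, had 455, 271 and 372 CPM in KI VTA against 66.4, 61.5 and 55.4 CPM in KI PFc (2.58, SE 0.207, adjusted p = 0.000153). Spp1, osteopontin, which large brainstem neurons also make, had 199, 63.0 and 139 CPM in KI VTA against 5.59, 5.66 and 5.73 CPM in KI PFc (4.56, SE 0.426). Syt2, the calcium sensor of fast release, was at 2.94 (SE 0.278).

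**Figure D4:**
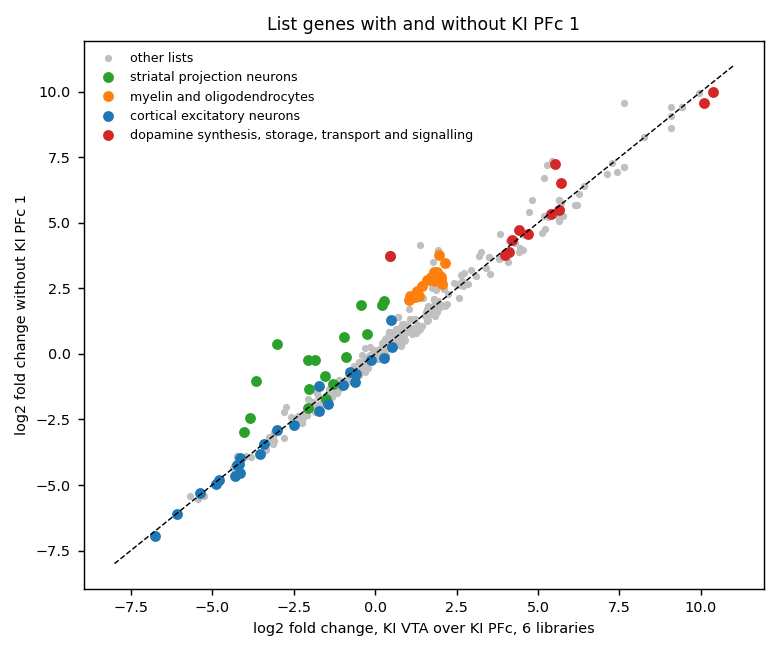
Log2 fold change of KI VTA over KI PFc of every tested list gene, with all 6 libraries on the x axis and without KI PFc 1 on the y axis. The dashed line marks equal values. The myelin genes lie above the line, with a median of 1.73 on the x axis and 2.82 on the y axis, as do most striatal genes, with medians of -1.53 and -0.23, and dopamine and cortical genes lie mostly near it.

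Genes of striatal projection neurons moved with KI PFc 1. Of 20 listed genes 18 were tested, and 8 were lower and 0 higher in KI VTA with all libraries, at a median of -1.53. Over all genes, 20.4% were lower and 16.4% higher. Without KI PFc 1, 9 were lower and 5 higher, at a median of -0.23, beside 30.7% and 29.5% of all genes. Ppp1r1b, a striatal signalling protein, had 82.1, 80.7 and 87.7 CPM in KI VTA against 841, 97.1 and 98.6 CPM in KI PFc. Its log2 fold change of -2.06 was not called (SE 0.823, edgeR adjusted p = 0.0878), and passed at -0.23 without KI PFc 1 (adjusted p = 0.0305) and at -2.51 without KI PFc 3 (adjusted p = 0.0414). Adora2a was lower at -3.65 (SE 1.16, adjusted p = 0.0432) and at -1.05 without KI PFc 1, and did not pass without KI VTA 1, 2 or 3 (adjusted p of 0.122 to 0.130).

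Myelin genes also moved with KI PFc 1. Of 19 listed genes, 6 were higher in KI VTA and 0 lower with all libraries, at a median of 1.73. All 19 were higher without KI PFc 1, at a median of 2.82, beside a median of 0.017 over all genes. Mbp, myelin basic protein, had 18783, 11368 and 16327 CPM in KI VTA against 8903, 1959 and 1586 CPM in KI PFc. No VTA library overlapped a PFc library, yet the difference of 1.89 was not called (SE 0.65, edgeR adjusted p = 0.0556), and passed at 3.13 without KI PFc 1 (SE 0.221, adjusted p = 7.28e-06). Olig1, a factor of the whole oligodendrocyte lineage, was at 0.90 (SE 0.191, adjusted p = 0.00942). Without KI VTA 3, 2 of the 19 myelin genes were called higher, beside 8.47% of all genes. Of 10 genes of oligodendrocyte precursors, 4 were higher and 0 lower, Olig1 among them, beside 16.4% of all genes called higher. Without KI VTA 3, 1 was higher, beside 8.47%. Without KI PFc 1, 6 were higher and 2 lower, beside 29.5% and 30.7%.

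Of 17 astrocyte genes, 8 were higher and 3 lower in KI VTA, beside 16.4% and 20.4% of all genes. Agt, angiotensinogen, a marker of astrocytes outside the telencephalon, had 342, 338 and 358 CPM in KI VTA against 7.65, 6.55 and 11.9 CPM in KI PFc (log2 fold change 5.31, SE 0.239, edgeR adjusted p = 2.22e-05). Gfap, the astrocyte intermediate filament, had 1007, 598 and 850 CPM in KI VTA against 227, 271 and 245 CPM in KI PFc (1.72, SE 0.201, adjusted p = 0.000741). Itih3, a matrix protein, had 162, 155 and 161 CPM in KI VTA against 35.3, 33.8 and 31.5 CPM in KI PFc (2.24, SE 0.107). Mfge8, a secreted bridging protein of phagocytosis, was lower with 79.1, 122 and 102 CPM in KI VTA against 383, 368 and 466 CPM in KI PFc (-2.01, SE 0.186, adjusted p = 0.000267). In Agt and Itih3 the VTA libraries agreed closely with one another, while KI VTA 2 was lowest in Gfap.

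Of 15 microglial genes, 4 were lower in KI VTA and 0 higher, with a median of -0.31, beside 20.4% of all genes called lower. Without KI VTA 3, 1 was lower, beside 12.9%, namely Tmem119. Tmem119, a surface marker of microglia, had 25.7, 23.8 and 29.3 CPM in KI VTA against 42.6, 40.7 and 50.8 CPM in KI PFc (-0.77, SE 0.135, edgeR adjusted p = 0.00438). Of 14 genes of endothelium and pericytes, 2 were higher and 0 lower, beside 16.4% of all genes called higher. They were Vtn, vitronectin, at 0.51 (adjusted p = 0.0451) and Cldn5, the tight junction protein claudin 5, at 0.39 (adjusted p = 0.0406). Neither Vtn nor Cldn5 passed without KI VTA 2, KI VTA 3 or KI PFc 2 (adjusted p of 0.0953 to 0.150), nor did Cldn5 without KI VTA 1 (0.0841) or Vtn without KI PFc 3 (0.132). With KI PFc 1 left out the list had 4 higher and 1 lower, beside 29.5% and 30.7%. Of 10 genes of meningeal fibroblasts, 3 were higher, beside 16.4% of all genes, and 5 without KI PFc 1, beside 29.5%. Dcn, the matrix protein decorin, was at 1.91 (SE 0.326, edgeR adjusted p = 0.00388).

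Neuropeptides were divided, with 8 of 24 tested genes higher and 10 lower in KI VTA, at a median of -0.46. Over all genes, 16.4% were higher and 20.4% lower. Leaving out KI PFc 1 gave 10 higher and 11 lower, at a median of 0.28, beside 29.5% and 30.7% of all genes. Nts, neurotensin, had 12.8, 13.5 and 13.3 CPM in KI VTA against 2.31, 1.21 and 0.75 CPM in KI PFc (log2 fold change 3.20, SE 0.341, edgeR adjusted p = 0.000501). Gal, galanin, was at 3.48 (SE 0.492). Npy, Cort and Vip, described with the interneurons, were among the falls.

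Genes that mark other brain regions differed between the VTA libraries. Of 15 genes of thalamus and habenula, 10 were higher in KI VTA and 1 lower. The 1 lower, Tac2, a tachykinin precursor, was at -1.17 (edgeR adjusted p = 0.0297) and did not pass without KI VTA 2, KI VTA 3, KI PFc 2 or KI PFc 3 (adjusted p of 0.0600 to 0.113). Tcf7l2, a thalamic factor, had 26.0, 102 and 55.6 CPM in KI VTA against 4.63, 5.60 and 7.16 CPM in KI PFc (log2 fold change 3.40, SE 0.489, edgeR adjusted p = 0.00187). Of 12 hippocampal genes 10 were tested, with 3 higher and 3 lower, beside 16.4% and 20.4% of all genes. Of 17 hypothalamic genes 8 were tested, with 5 higher and 1 lower. Otp, a hypothalamic homeodomain factor, had 15.7, 2.65 and 10.1 CPM in KI VTA against 0.193, 0.127 and 0.205 CPM in KI PFc (5.70, SE 0.821, adjusted p = 0.00188). Of 11 cerebellar genes 10 were tested, 5 were higher with all libraries and 2 without KI VTA 3, beside 16.4% and 8.47% of all genes. The cerebellar list summed to 168, 745 and 424 CPM in KI VTA libraries 1 to 3, against 121, 203 and 266 CPM in KI PFc libraries 1 to 3. KI VTA 1 was thus below KI PFc 2 and 3. Of 12 choroid plexus and ependymal genes 9 were tested and 6 higher. Their summed levels were 49.0, 246 and 148 CPM in KI VTA libraries 1 to 3, against 55.4, 51.0 and 23.4 CPM in KI PFc libraries 1 to 3. Of 13 Hox genes, which mark the hindbrain and spinal cord, 12 were in the file and 0 reached the test. They summed to 22.9, 1.58 and 12.9 CPM in KI VTA libraries 1 to 3, and to 0 to 0.614 CPM in KI PFc. The part of neighbouring tissue in the VTA results was not tested.

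**Figure D5:**
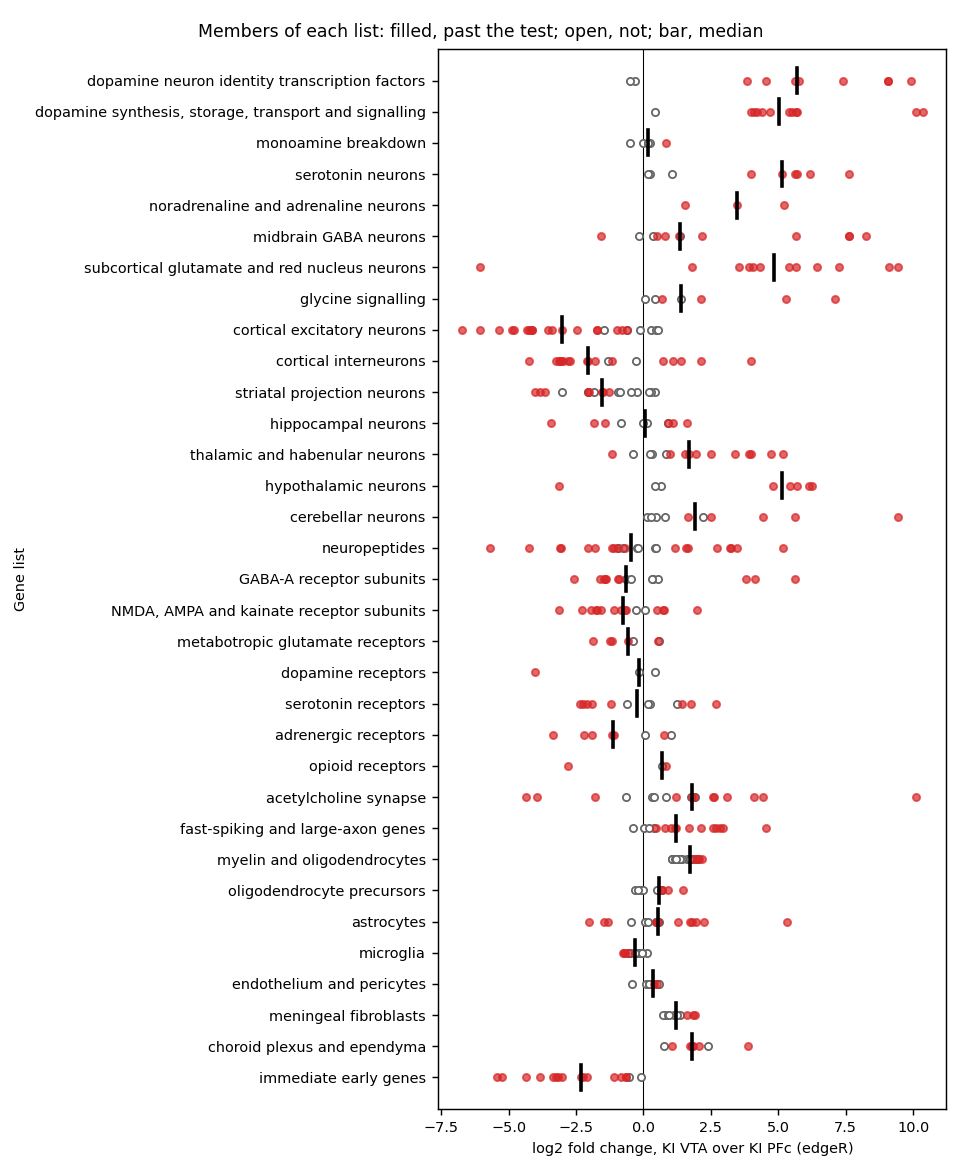
Log2 fold change of KI VTA over KI PFc for each tested member of each gene list, filled where edgeR's adjusted p was under 0.05 and open where it was not, with a bar at the list median. Genes with 0 counts in KI PFc are drawn at their fitted value, which is no bound. Dopamine lists sit far to the right, with medians of 5.70 and 5.04, and cortical excitatory and immediate early genes to the left, with medians of -3.02 and -2.33.

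The WT libraries gave the region contrast in samples that share none with the KI one. The library labelled WT VTA 3 had 0.574 CPM of Slc6a3 against 555 and 229 CPM in WT VTA 1 and 2, and 1174 CPM of Ppp1r1b against 61.2 and 48.9 CPM. With it the test called 2828 of 14332 genes (19.7%), 1392 higher (9.71%) and 1436 lower in WT VTA. Leaving it out gave 7917 calls of 14628 (54.1%), 3893 higher (26.6%) and 4024 lower (27.5%). Of the 5308 KI calls, 4224 (79.6%) were also called in WT without WT VTA 3 in the same direction, which is 53.4% of the WT calls, and 6 were called in opposite directions. Leaving out KI PFc 1 and WT VTA 3, 6584 genes were called in both in the same direction, 74.5% of the KI calls and 83.2% of the WT calls, and 16 in opposite directions.

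No gene passed the test of genotype by region in edgeR with all 12 libraries. The smallest adjusted p was 0.652 over 14824 genes, 1128 genes had an unadjusted p under 0.05, and DESeq2 called 39 genes. Without KI PFc 1 and WT VTA 3 edgeR again called 0, with a smallest adjusted p of 0.0543 over 14947 genes and 2430 unadjusted, and DESeq2 called 642. Nts, neurotensin, was among the genes at that smallest adjusted p, and was picked after its values were seen. In Nts the KI region difference exceeded the WT one by 1.71 (SE 0.32) on the log2 scale. For Htr2c the difference in the fit without KI PFc 1 and WT VTA 3 was 1.31 (SE 0.356, edgeR adjusted p = 0.107). Htr2c had 125, 117 and 116 CPM in KI VTA, and 15.5 and 24.3 CPM in KI PFc 2 and 3. The WT levels were 111 and 112 CPM in WT VTA 1 and 2, and 65.2, 37.2 and 32.3 CPM in WT PFc. KI PFc 1, left out of that fit, had 15.4 CPM.

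The authors' deposited table of this contrast listed 5664 genes at a q-value under 0.05, 2580 higher and 3084 lower in KI VTA. Of these, 5148 were called by edgeR in the same direction and 0 in the opposite one, 90.9% of the calls in the authors' deposited table and 97.0% of edgeR's. For Maoa the authors' deposited table gave a log2 fold change of 0.84 (q = 1.27e-07).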

How the data were processed

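The members of the comparison, the 34 gene lists and the tests were chosen with earlier results of these data known. Per the file headers, the authors deposited estimated counts (expected counts) and TPM per gene and library, and a table for this contrast with log2 fold changes and p- and q-values; the build was GRCm38.p6, per the submitters' processing notes, and the aligner and any use of strand in counting were not given in the sources used here. Of the deposited estimated counts, 9.88% were not whole and were rounded. Only the 12 VTA and PFc libraries entered fits, other KI and WT regions entered scaling and the check of libraries, and 240 per-sample columns of the deposited tables were not used. Of 19025 gene IDs, 18969 matched the RefSeq table by ID.

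The counts, filtered with filterByExpr and scaled by trimmed means, went into the quasi-likelihood test of edgeR 4.0.16 (limma 3.58.1, R 4.3.3) over 3 libraries a group, with Benjamini-Hochberg adjustment over all tested genes and a threshold of 0.05. CPM was scaled over all 36 libraries, and its SD is over 3 libraries. Genes with 0 counts in a group are given as bounds against 3 counts over the group, and those with 1 to 3 counts as a ratio with an exact 95% interval; both cover counting error only. DESeq2 1.42.0 was an alternative. The script was tested on simulated data with 200 changed genes before use. Libraries with the same number deviated from their group means with correlations of -0.0915, 0.0295 and -0.138 in KI and 0.0163, 0.152 and 0.0160 in WT. The numbers were not taken as pairs. These correlations cannot exclude pairing, since tissue content that differs between libraries also enters the deviations.

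The genes named were Maoa, the 12 largest rises and 12 largest falls that passed without overlap (mean log2 CPM no lower than 1), and from each list up to 6 that passed, up to 2 that did not and the defining markers. Aldh1a1, Chrm2, Chrm3, Foxp2, Maob and Tac2 fall outside that rule and were named after their values were seen. Some genes that the rule picks are not reported here. Figures were drawn with matplotlib 3.10.9 under Python 3.11.15.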

Additional observations from a re-analysis of the deposited data

How the results depend on the processing

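The count of genes called in KI VTA over KI PFc, 5308 with all libraries, was 3115 to 8835 when 1 library was left out: 8835 without KI PFc 1, 3491 without KI VTA 1 and 3115 without KI VTA 3. It was 5760 in DESeq2, 5317 with other size factors, 5277 without the filter and 4930 with the spread shared over 12 libraries. Chosen after seeing the data, leaving out both KI PFc 1 and KI VTA 3 gave 7356 calls and DESeq2 without KI PFc 1 gave 8109.

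With the replicate number as a block the count was 4156, and 9037 with pairs 2 and 3 only; in WT the block gave 1918 calls, and for genotype by region 0. Whether the same number means the same animal is not known, so these are counts only.

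In WT VTA over WT PFc, 2828 genes were called with all libraries and 703 to 7917 with 1 left out, 7917 of them without WT VTA 3, and 4188 in DESeq2. Genotype by region gave 0 calls in edgeR whichever library was left out, 39 in DESeq2, and 642 in DESeq2 without KI PFc 1 and WT VTA 3, an alternative chosen after seeing the data. Maoa kept its direction and its call in 14 of 14 alternatives, at log2 fold changes of 0.71 to 0.92 and adjusted p of 5.34e-10 to 0.0141, and at 0.77 to 0.92 with 1 library left out.

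The genes that changed sign were not called. Nr4a2 was at -0.64 to 0.24 with 1 library left out (0.24 without KI PFc 1), 0.33 with pairs 2 and 3 as a block, 0.30 without KI PFc 1 and KI VTA 3, and 0.24 in DESeq2 without KI PFc 1. Drd2 was at -0.10 to 3.72 with 1 library left out, called only without KI PFc 1. Maob was at -0.10 to 0.11 with 1 left out, 0.0024 in DESeq2, 0.0025 with other size factors and 0.0016 with a shared spread. The causes were not tested.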
